A study of Mus musculus with 21 samples.

Results

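The interferon regulatory factors (IRFs) are a family of transcription factors. The genes Irf1, Irf2, Irf3, Irf4, Irf5, Irf7, Irf8 and Irf9 were read here from RNA sequencing counts of whole brown adipose tissue (BAT) and of white vastus (WV), a fast-twitch thigh muscle. The rule took the gene model with each of these symbols, and each symbol had a single model, so 8 of the 28541 models in each table are members. All 8 passed the filter on low counts in both tissues.

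BATI4KO mice were set against floxed littermates, whose Irf4 gene is flanked by loxP sites that the BATI4KO mice carry too. From knowledge of the study, BATI4KO stands for deletion of Irf4 in brown adipocytes by a Cre recombinase under the Ucp1 promoter, so other cells of the fat pad and the muscle keep the gene. The 11 BAT libraries are 5 floxed and 6 BATI4KO, and the 10 WV libraries are 5 of each genotype. The sources used here do not give age, sex, the Cre line or the deleted exons. They also leave unsaid whether libraries come from different mice, and any p-value reflects only how much these samples vary, which may be technical. The question for this family was whether its other members shift when Irf4 is lost.

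IRF proteins share a DNA-binding domain that recognises repeats of the letters GAAA. In the type I interferon pathway, receptor signalling joins STAT proteins and IRF9 into a complex that binds such repeats, called interferon-stimulated response elements (ISRE), in front of its target genes. IRF4 and IRF8 bind DNA weakly alone and usually act with partners of the ETS or AP-1 families. IRF4 is best known from B, plasma, T and dendritic cells, and in fat it has been described as a regulator of lipolysis and of the thermogenic programme together with the coactivator PGC-1alpha.

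The sequences below show what these proteins read, taken from RefSeq promoter windows of 300 bases (build GRCm38.p6) and written 5′ to 3′ on the gene's strand. The motif searched was GAAA, any 2 bases and GAAA again, on both strands, so it reads TTTC, 2 bases and TTTC where it lies on the other strand. Capitals mark one match in each sequence. Irf2 is shown as a family member whose own promoter holds the motif (chr8:46739495-46739533, plus strand), and Cxcl10 (chr5:92349073-92349122, minus strand), Gbp2 (chr3:142620584-142620633, plus strand) and Irgm1 (chr11:48871421-48871470, minus strand) as interferon-induced genes, chosen with their values known, whose levels are given further on. Irgm1 holds a further match that overlaps the one marked.
Irf2: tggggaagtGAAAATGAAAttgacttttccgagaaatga
Cxcl10: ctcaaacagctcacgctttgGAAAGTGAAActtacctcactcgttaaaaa
Gbp2: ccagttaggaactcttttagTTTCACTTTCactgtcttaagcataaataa
Irgm1: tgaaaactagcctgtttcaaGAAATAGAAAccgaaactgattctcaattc

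Windows were found for all 8 members, 11 windows in all. Of these genes, only Irf2 held the motif, at position -241 from its start. The same stretch of Irf2 also held the ETS-IRF composite motif (GGAA, any 2 bases and GAAA) at position -247, overlapping the first match. Of all 32817 promoter windows of this length, 3.43% held the GAAA repeat, 2.72% the composite and 0.241% both. Of 45 interferon-induced genes in a list fixed for this report, 33 had a window and 17 of them (51.5%) held the repeat. Counted by window, as the 3.43% is, 18 of their 39 windows (46.2%) held it. A match describes letters in a window and not a bound site.

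Library totals ran from 20219479 to 41773148 counts in BAT and from 30479508 to 40328627 in WV. Levels are given as CPM, the read count relative to the TMM-scaled library size, and differences between groups as log2 values from edgeR's quasi-likelihood test with Benjamini-Hochberg adjustment over all genes tested, with 0.05 as the threshold. The tissues matched their labels: 10 adipocyte markers summed to 5552 to 14756 CPM in BAT and 122 to 215 CPM in WV, and 10 fast muscle fibre markers to 256180 to 578350 CPM in WV. BAT also held muscle RNA, 133 to 1004 CPM in floxed and 550 to 16192 CPM in BATI4KO libraries, highest in the library titled BAT_KO_3. Titles mark floxed libraries FX and BATI4KO libraries KO. In BAT, 6 titles carry short numbers (1 to 3) and 5 carry long tags (such as BAT_FX_5497), and all WV titles carry long tags. What the numbers mean is not stated, so the title style entered the BAT fit as a covariate.

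Irf4 was the member that fell in BATI4KO fat. The 5 floxed BAT libraries stood at 20.7, 22.5, 43.5, 41.5 and 17.9 CPM. The 6 BATI4KO libraries ran from 4.92 to 5.95 CPM with a median of 5.34. The groups did not overlap, and the floxed libraries split into 3 near 20 CPM and 2 near 42 CPM, with a short-number and a long-tag library in the upper pair. Means were 29.2 ± 12.3 (SD, n = 5) and 5.36 ± 0.396 CPM (SD, n = 6). The log2 difference was -2.45 (SE 0.24, 95% interval -2.96 to -1.94, adjusted p 0.0026), 5.47-fold lower and the smallest p among 16051 genes tested. In whole tissue, fewer cells that express a gene and less RNA per cell cannot be told apart.

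The residual Irf4 counts in BATI4KO fat were 157 to 244 per library, against 862 to 1645 in floxed fat, so the transcript was reduced and not absent. Which exons these reads cover cannot be read from gene totals. The difference was -2.43 within the short-number libraries (adjusted p 0.396, 3 against 3) and -2.48 within the long-tag ones (adjusted p 0.057, 2 floxed against 3 BATI4KO), close to the pooled value but past the threshold in neither. With the muscle fibre score as a covariate it was -2.77 (adjusted p 0.00306). Markers of B and plasma cells, which themselves express Irf4, summed to 5.23 to 6.26 CPM in floxed and 7.19 to 21.6 CPM in BATI4KO fat, the opposite direction to Irf4. Their part in the remaining Irf4 level was not tested.

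**Figure D1:**
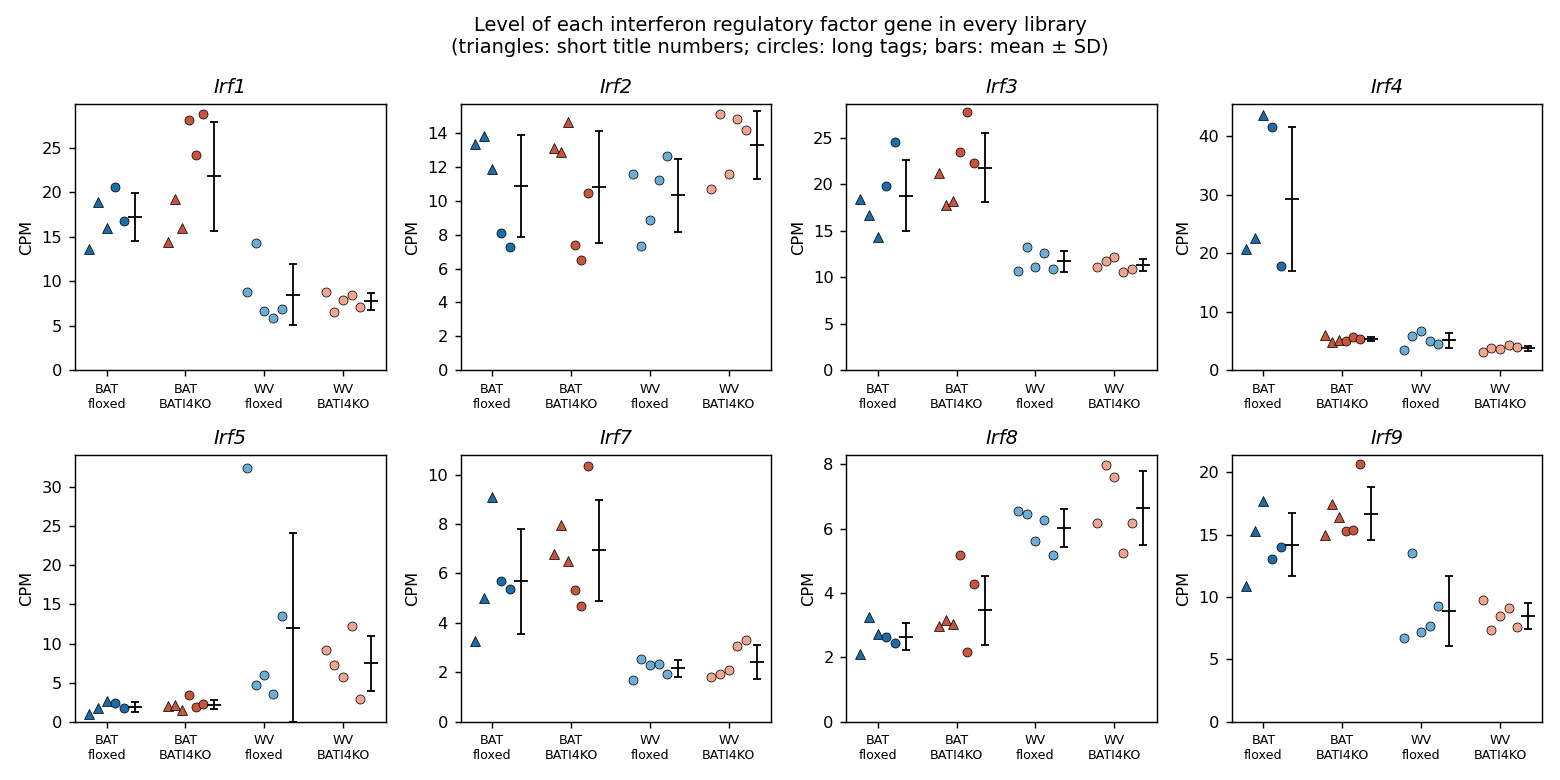
CPM of each family gene in all 21 libraries, by tissue and genotype, on linear axes starting at 0; triangles are BAT libraries with short title numbers, circles those with long tags, and bars are the mean ± SD. Irf4 is the gene whose floxed BAT libraries (17.9 to 43.5 CPM) stand clear of the other 3 groups (3.07 to 6.66 CPM).

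None of the other 7 members passed the test in BAT. Across the 8 members 1 was called, against 0.0436% of all genes tested, and that one is the deleted gene. All 7 others had a positive difference, from +0.06 to +0.37 with a median of +0.23, while the median of all genes was -0.01 and 48.8% of genes were positive. Their adjusted p ran from 0.413 to 0.852 and none had an unadjusted p under 0.05, which 14.7% of all genes had. Irf4 was also the only member whose groups did not overlap, as did not those of 0.928% of genes tested. With library totals as the scale, the median of all genes moved to +0.13 and the 7 members ran from +0.20 to +0.50. Without the style covariate 6 of the 7 were positive, with Irf2 at -0.01. The same count held without BAT_KO_5494, with Irf2 at -0.03.

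Irf3 and Irf7 encode the factors that the kinases TBK1 and IKK-epsilon activate when a cell senses nucleic acids. Irf3 stood at 18.8 ± 3.83 CPM in floxed fat (SD, n = 5) and 21.8 ± 3.70 CPM in BATI4KO fat (SD, n = 6), a log2 difference of +0.17 with a 95% interval of -0.04 to +0.39. Irf7, itself interferon-induced, ran from 3.27 to 9.09 CPM in floxed and 4.67 to 10.4 CPM in BATI4KO fat, a difference of +0.29 with an interval of -0.27 to +0.86. The ranges overlapped for both genes. Irf9, the DNA-binding partner of the STAT proteins, stood at 14.2 ± 2.54 (SD, n = 5) and 16.7 ± 2.15 CPM (SD, n = 6), a difference of +0.23 with an interval of -0.06 to +0.53.

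Irf1, an interferon-gamma-induced activator, and Irf2, which competes with it for the same sites, showed how far the title styles differ. Irf1 in floxed fat ran from 13.6 to 18.9 CPM in the 3 short-number libraries and stood at 20.6 and 16.8 CPM in the long-tag ones. In BATI4KO fat its short-number libraries ran from 14.4 to 19.2 CPM, and its long-tag libraries stood at 28.1, 24.1 and 28.8 CPM. The long-tag BATI4KO libraries were the 3 highest of the 11, and the short-number groups overlapped. The Irf1 difference was +0.25 over both styles (95% interval -0.04 to +0.54, adjusted p 0.413), +0.03 within short numbers (adjusted p 0.970) and +0.54 within long tags (adjusted p 0.210).

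Irf2 was 12.9 to 14.6 CPM in short-number and 6.49 to 10.4 CPM in long-tag BATI4KO libraries, and 11.9 to 13.8 against 7.26 and 8.08 CPM in floxed ones. The style groups did not overlap, nor did those of 16.0% of all genes, whereas the genotypes did within each style. Its genotype difference was +0.06 (95% interval -0.20 to +0.33). The difference of short-number minus long-tag libraries was +0.77 for Irf2 (adjusted p 0.000762), -0.46 for Irf1 (adjusted p 0.021) and -0.37 for Irf3 (adjusted p 0.014), so 3 of 8 members were called for style, against 31.3% of all genes. Irf1 lost this call without BAT_KO_1, BAT_KO_3 or BAT_KO_5494 (-0.40 to -0.37, adjusted p 0.0615 to 0.0694) and Irf3 without BAT_FX_5503 (-0.31, adjusted p 0.0556).

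Irf5 and Irf8 are known from macrophages, dendritic cells and B cells. In fat both were low: Irf5 between 1.04 and 3.38 CPM and Irf8 between 2.11 and 5.19 CPM over the 11 libraries. The genotype differences were +0.17 for Irf5 (95% interval -0.35 to +0.70) and +0.37 for Irf8 (-0.09 to +0.82). The highest Irf5 and Irf8 levels in fat, 3.38 and 5.19 CPM, were both in BAT_KO_5414. That library also had the highest sums of the macrophage (134 CPM), dendritic cell (149 CPM), B and plasma cell (21.6 CPM) and T cell (19.5 CPM) markers among BATI4KO fat. Without it the Irf8 difference was +0.24 and that of Irf5 +0.05. The part of these cells in the genotype differences was not tested, and relations with a macrophage score across libraries are given further on.

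The 7 members other than Irf4 were also summed per kilobase of model length, which allows levels of different genes to be added. The sum was 24.5 ± 1.61 CPM per kb in floxed fat (SD, n = 5, range 21.6 to 25.5) and 28.7 ± 2.86 CPM per kb in BATI4KO fat (SD, n = 6, range 25.9 to 33.6). The groups did not overlap, with 25.5 the highest floxed and 25.9 the lowest BATI4KO sum. Nor did they with library totals as the scale (29.3 to 34.9 against 38.3 to 46.8), where the median of all genes was +0.13. Taken singly, each of these 7 members overlapped between the genotypes. With Irf4 added, the family sums were 30.7 ± 3.53 and 29.8 ± 2.86 CPM per kb and overlapped. Irf4 was 19.8% of the family sum in floxed and 3.87% in BATI4KO fat. These sums are descriptions with no test, and no share for sums of other genes stands beside them.

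**Figure D2:**
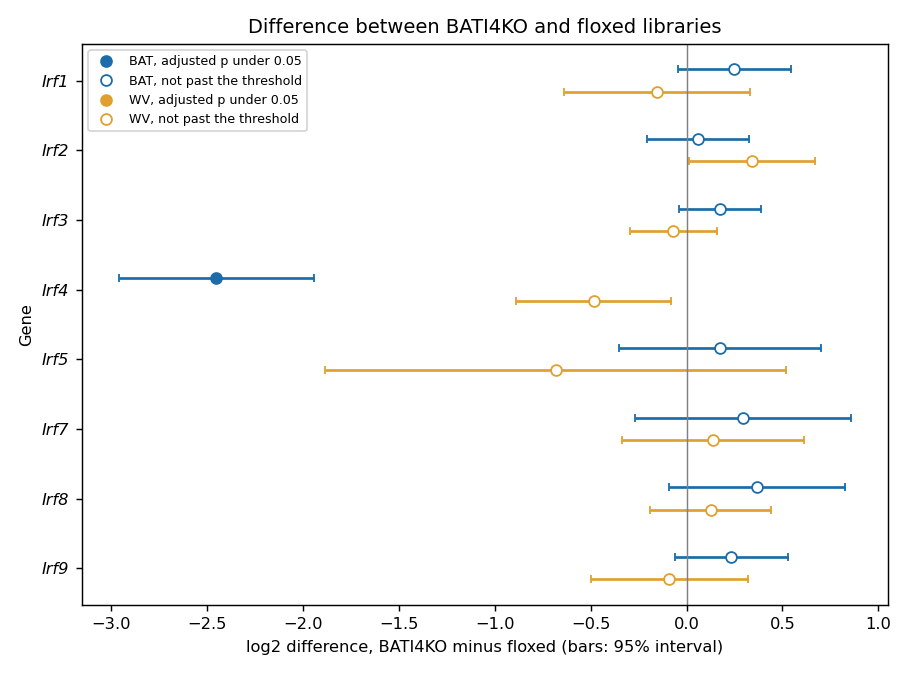
Log2 difference between BATI4KO and floxed libraries for each member in BAT (blue) and WV (orange), with 95% intervals; filled points passed the adjusted threshold of 0.05. Irf4 in BAT at -2.45 is the only filled point, and the 7 other BAT points lie between +0.06 and +0.37.

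In the muscle, where the deletion was not aimed, 0 of 8 members passed edgeR's test, against 0.00688% of all genes (1 of 14529), and 0 passed with DESeq2 or limma voom. At an unadjusted p under 0.05 there were 2 members, Irf4 and Irf2, against 8.91% of all genes. Irf4 stood at 3.54, 5.87, 6.66, 4.99 and 4.42 CPM in floxed and at 3.07, 3.75, 3.58, 4.25 and 3.98 CPM in BATI4KO muscle. The groups overlapped, and the difference was -0.48 (SE 0.19, 95% interval -0.89 to -0.08, adjusted p 0.489). Irf2 stood at 11.5, 7.35, 8.88, 11.2 and 12.7 CPM in floxed and at 10.7, 15.1, 11.6, 14.8 and 14.2 CPM in BATI4KO muscle, a difference of +0.34 (95% interval +0.01 to +0.67, adjusted p 0.544). The other 6 members ran from -0.68 to +0.14, with Irf5 at the low end. The groups overlapped for all 8 members, while they did not for 1.19% of all genes.

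The genotype effect differed between the tissues for Irf4 alone among the 8 members. The interaction, the change in BAT minus the change in WV, was -1.98 (SE 0.31, 95% interval -2.62 to -1.34, adjusted p 0.0136). It was the second smallest p of 16632 genes, of which 0.0180% were called. The other 7 members had adjusted p from 0.589 to 0.927, with interactions from -0.30 for Irf2 to +0.86 for Irf5. The Irf4 interaction missed the threshold with library totals (-1.68, adjusted p 0.101) and with limma voom (-1.87, adjusted p 0.190).

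The tissues themselves separated the members. The 4 long tags found in both tissues carry the same genotype in each, and it is not stated whether a shared tag is the same mouse, so the tissue and interaction tests treat all libraries as separate. In floxed mice 8 of 8 members differed between BAT and WV, against 65.8% of all genes, 5 higher in fat (against 34.1%) and 3 lower (against 31.7%). Higher in fat were Irf4 by 2.52 on the log2 scale (SE 0.25, adjusted p 1.09e-08), Irf7 by 1.35 (SE 0.29), Irf1 by 1.30 (SE 0.22), Irf3 by 0.90 (SE 0.11) and Irf9 by 0.66 (SE 0.19, adjusted p 0.00492). Lower in fat were Irf5 with a difference of -2.47 (SE 0.58, adjusted p 0.000858), Irf8 with -1.09 (SE 0.22) and Irf2 with -0.42 (SE 0.17, adjusted p 0.0381). Without WV_FX_5413 the Irf5 difference was -1.67 (adjusted p 0.0026). With the style term in the fit, the tissue differences set WV against BAT at its long-tag level. Over all floxed libraries Irf2 averaged 10.9 CPM in fat and 10.3 CPM in muscle, the opposite direction to its fitted difference. The libraries of the tissues did not overlap for 5 members, Irf3, Irf4, Irf5, Irf7 and Irf8, against 52.0% of all genes.

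These directions are on the TMM scale, where the median of all genes was +0.11. With library totals alone, which the abundant muscle transcripts shape, that median moved to +0.79 in floxed and +1.09 in BATI4KO mice. Irf2 then turned to +0.31 and Irf8 stood at -0.41 without passing (adjusted p 0.171) in floxed mice. The Irf2 result also changed with the covariate: without the style term it was +0.076 (adjusted p 0.770). Its call was lost when any one of 9 libraries was left out, namely BAT_FX_3, BAT_FX_5497, BAT_FX_5503, BAT_KO_3, BAT_KO_5414, BAT_KO_5492, WV_FX_5413, WV_FX_5503 and WV_FX_5514 (-0.45 to -0.34, adjusted p 0.0538 to 0.110).

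In BATI4KO mice, where fat has lost most of its Irf4, 8 of 8 members again differed between the tissues, against 70.5% of all genes, in the same directions, 5 higher in fat (against 37.4%) and 3 lower (against 33.1%). Irf4 was then +0.54 (SE 0.24, adjusted p 0.0494), just inside the threshold, and 16 of the 21 libraries, taken out one at a time, ended the call (+0.42 to +0.58, adjusted p 0.0507 to 0.105). The 5 whose removal kept it were BAT_FX_3, BAT_FX_5503, WV_FX_5413, WV_FX_5497 and WV_KO_5495. The other members stood at +1.69 for Irf1, +1.49 for Irf7, +1.13 for Irf3, +0.97 for Irf9, -0.72 for Irf2, -0.87 for Irf8 and -1.61 for Irf5. With library totals Irf2 turned to +0.26, Irf8 to +0.076, and Irf5 stood at -0.67 without passing (adjusted p 0.187). The groups did not overlap for 6 members, against 56.3% of all genes.

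**Figure D3:**
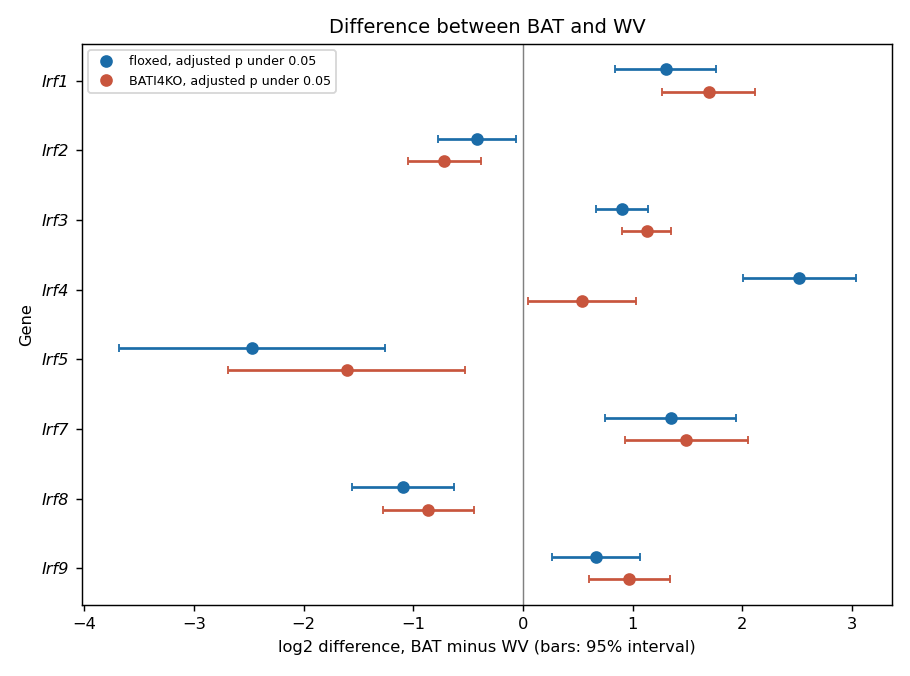
Log2 difference of BAT minus WV for each member in floxed (blue) and BATI4KO (red) mice, with 95% intervals on the TMM scale; filled points passed the adjusted threshold of 0.05. Irf4 moves from +2.52 in floxed to +0.54 in BATI4KO mice, while the other members lie on the same side of 0 in both. BAT is taken at its long-tag level.

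Compared per length, the family had a different order in each tissue. In floxed fat Irf3 led at 8.62 ± 1.76 CPM per kb (SD, n = 5), followed by Irf4 at 6.24 ± 2.62, Irf1 at 5.11 ± 0.797, Irf2 at 3.50 ± 0.974, Irf9 at 3.06 ± 0.548 and Irf7 at 2.99 ± 1.12. Each of these 6 overlapped its neighbour in the order. Irf7 stood clear of Irf5 at 0.752 ± 0.252, which overlapped Irf8 at 0.434 ± 0.0694 CPM per kb. In BATI4KO fat Irf4 dropped to the sixth place at 1.15 ± 0.0845 CPM per kb (SD, n = 6), clear of Irf2 above it at 3.49 ± 1.06 and overlapping Irf5 below it at 0.866 ± 0.249.

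In floxed muscle Irf3 again led at 5.38 ± 0.528 CPM per kb (SD, n = 5), with Irf5 at 4.73 ± 4.76, Irf2 at 3.33 ± 0.694, Irf1 at 2.53 ± 1.02 and Irf9 at 1.91 ± 0.599. Irf7, Irf4 and Irf8 followed at 1.14 ± 0.182, 1.09 ± 0.261 and 0.990 ± 0.0963 CPM per kb, 3 overlapping neighbours. The place of Irf5 rested on WV_FX_5413 at 12.8 CPM per kb, since the other 4 floxed libraries stood at 1.83, 2.33, 1.38 and 5.30. In BATI4KO muscle Irf2 was second at 4.28 ± 0.646, ahead of Irf5 at 2.94 ± 1.37, and Irf4 was eighth at 0.796 ± 0.0950 CPM per kb. Every member in that order overlapped its neighbour.

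Irf5 was the most variable member in the muscle. The floxed libraries stood at 32.5 (WV_FX_5413), 4.64, 5.92, 3.51 and 13.5 CPM, and the BATI4KO libraries at 9.15, 7.26, 5.68, 12.2 and 2.96 CPM. The spread was 9.26-fold among floxed and 4.11-fold among BATI4KO libraries. The ranges overlapped in part: 2 floxed libraries lay above every BATI4KO one, and 1 BATI4KO library lay below every floxed one. The difference between genotypes was -0.68 (SE 0.55, adjusted p 0.751), and +0.11 (adjusted p 0.935) without WV_FX_5413. These values rest on 61 to 661 counts per library.

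The Irf5 pattern across the 10 muscle libraries was set beside other genes, a step chosen after its spread was seen, so the values are descriptions. Among 12472 genes the most alike was Lias, the mitochondrial lipoic acid synthase, at 34.1 to 47.3 CPM (r = 0.987), followed by Raver2 (0.957), Plcl1 (0.948), Stard7 (0.940) and Got1 (0.937). The troponin gene of slow fibres, Tnnt1, ranged from 0.634 to 173 CPM and had r = 0.54 with Irf5, and slow myosin Myh7 had r = 0.51. By rank their correlations with Irf5 were higher, rho = 0.73 for Tnnt1 and 0.70 for Myh7, beside 0.99 for Lias. Tnpo3, whose gene overlaps Irf5 and whose reads could be counted with it because strand handling is not given in the sources used here, stood at 82.2 to 105 CPM with r = 0.07. The sum of 12 macrophage markers was lowest, 48.8 CPM, in WV_FX_5413, the library with the highest Irf5.

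**Figure D4:**
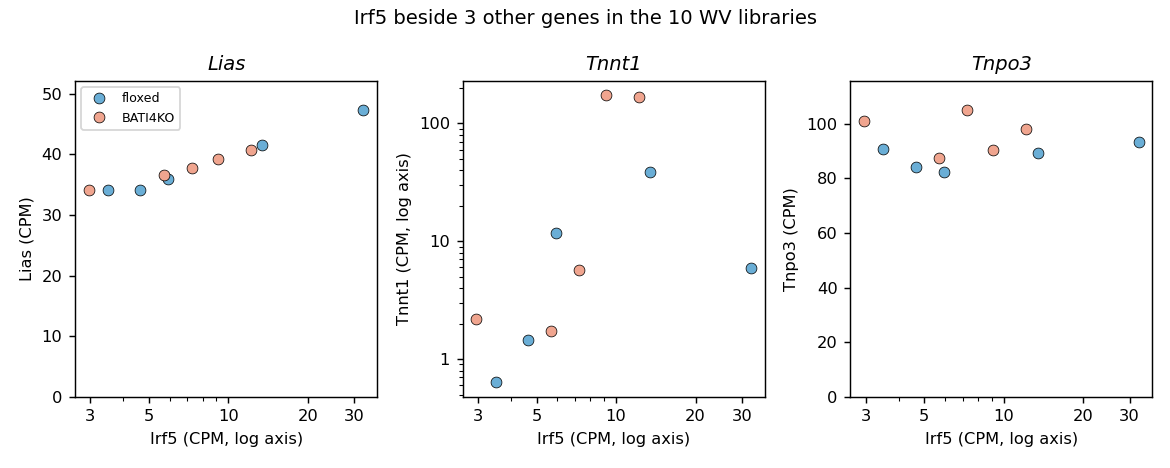
CPM of Lias, Tnnt1 and Tnpo3 against CPM of Irf5 in the 10 WV libraries, with Irf5 on a log axis in every panel and Tnnt1 on a log axis too; each point is a library, blue floxed and pink BATI4KO. Lias orders the libraries almost as Irf5 does, while Tnpo3, the overlapping gene, does not.

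The rest of the interferon pathway was read from lists fixed for this report. Of the interferon genes themselves, chosen after their counts were seen, 10 of 18 had no count in any library, and all 18 together had 134 counts over the 21 libraries, with at most 15 for any one gene in a library. These counts are too few to compare groups. Of the receptor and JAK-STAT genes listed, 0 of 15 passed between genotypes in BAT (11 positive, median +0.11; unadjusted, 3 higher and 1 lower, beside 14.7% of all genes). Tyk2, a kinase of the type I receptor, had the smallest p of them, averaging 14.5 CPM among floxed and 19.6 CPM among BATI4KO libraries (+0.45, adjusted p 0.139), and Ptpn11, a phosphatase, the smallest on the negative side (-0.32, adjusted p 0.229).

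Among genes induced by interferon, 0 of 42 tested passed in BAT, against the 0.0436% above, but 40 of 42 differences were positive, with a median of +0.28 beside -0.01 for all genes. Unadjusted, 8 of 42 had a p under 0.05, all of them higher, beside 14.7% of all genes in either direction. Ddx58, the RNA sensor RIG-I, had the smallest p, at 25.8 ± 4.07 CPM in floxed (SD, n = 5) and 33.0 ± 2.49 CPM in BATI4KO fat (SD, n = 6), a difference of +0.38 with an adjusted p of 0.162. Samd9l had the smallest p of the 2 negative ones, at -0.09 (adjusted p 0.821). The genes whose promoters were shown, also not past the threshold, stood at +0.88 for the chemokine Cxcl10 (SE 0.24, adjusted p 0.180), +0.57 for the GTPase Gbp2 (SE 0.32, adjusted p 0.432) and +0.34 for the GTPase Irgm1 (SE 0.21, adjusted p 0.473).

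In muscle 39 of these genes were tested, 0 passed, 16 were positive and the median was -0.04. The median in BAT was +0.15 within short-number and +0.51 within long-tag libraries. The B and plasma cell markers in BAT, with 7 of 7 positive and 0 called, had a median of +0.98, which was +0.40 and +2.02 within those styles and +0.64 without BAT_KO_5414. Of the T cell markers 8 of 8 were positive and 0 called, with a median of +0.70, or +0.27 without BAT_KO_5414. Of the macrophage markers 2 of 12 were positive and 0 called, with a median of -0.18. All 10 muscle fibre markers were positive in BAT with 0 called and a median of +2.68, or +1.43 without BAT_KO_3. An unadjusted p under 0.05, which 14.7% of all genes had, was found for all 10 of these. It was also found for 6 of 7 B and plasma cell, 1 of 8 T cell and 0 of 12 macrophage markers. With the muscle score as a covariate the interferon-induced median was +0.31. The part of the immune cell markers in the genotype differences of the family was not tested.

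Upstream of the IRFs, 0 of 21 sensor and kinase genes passed in BAT, with a median of -0.02 and 2 lower at an unadjusted p under 0.05. Tank, an adaptor of TBK1, had the smallest p (-0.40, adjusted p 0.194), and Ikbkb the smallest on the positive side (+0.15, adjusted p 0.437). Of 16 partner and corepressor genes tested, 0 passed, 12 were positive, 4 of them at an unadjusted p under 0.05 (14.7% of all genes), and the median was +0.17. Their smallest p belonged to Tcf3 (+0.30, adjusted p 0.201) and, on the negative side, to Crebbp (-0.10, adjusted p 0.756).

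Of 6 genes reported as IRF4 targets in fat, 0 passed in BAT, and 1 in each direction had an unadjusted p under 0.05 (14.7% of all genes). Ucp1, the uncoupling protein, averaged 2813 CPM among floxed and 1892 CPM among BATI4KO libraries (-0.66, SE 0.21, adjusted p 0.203). Mstn, the secreted myostatin, stood at 0.106 ± 0.0967 and 0.851 ± 1.12 CPM, low levels with an SD above the mean in BATI4KO fat. Its difference was +2.84 (SE 0.84, adjusted p 0.193), beside 108 CPM in floxed muscle and the muscle fibre markers given above. Ppargc1a (-0.02), Lipe (-0.03), Pnpla2 (-0.16) and Prdm16 (+0.35) did not pass either. The list was chosen with knowledge of the study and of earlier results, so it is no independent evidence.

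**Figure D5:**
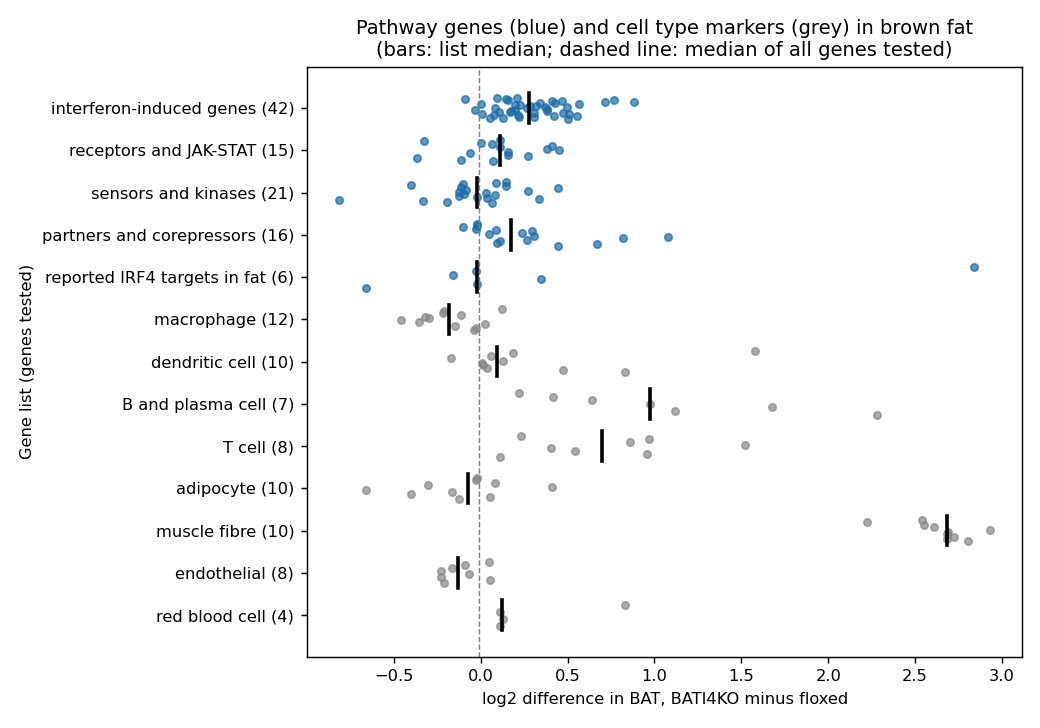
Log2 difference in BAT, BATI4KO minus floxed, of each gene tested in the pathway lists (blue) and the cell type marker lists (grey), with the list median as a black bar and the median of all genes as a dashed line. The 42 interferon-induced genes have a median of +0.28 and lie mostly right of the line, and the B and plasma cell (+0.98), T cell (+0.70) and muscle fibre (+2.68) markers lie farther right.

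Between the tissues, in floxed mice, 28 of 42 interferon-induced genes were higher in fat and 1 was lower, beside 34.1% and 31.7% of all genes, with a median of +0.77 and Cxcl10 (+2.75), Dhx58 (+2.41) and Psmb9 (+2.17) in the lead, and Dtx3l as the lower one (-0.45). Of the 15 receptor and JAK-STAT genes 6 were higher and 4 lower in fat, near the same shares of all genes. Ifnar2, a chain of the type I interferon receptor, stood at 65.2 CPM in fat and 4.93 CPM in muscle (+3.87), and Il10rb, a chain shared by lambda interferon and IL-10 receptors, at 18.5 and 4.65 CPM (+2.05). Ifngr2, a chain of the interferon-gamma receptor, stood at 12.6 CPM in fat and 121 CPM in muscle (-3.32), and Jak2 at 34.1 and 199 CPM (-2.39).

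Across libraries, 32 relations were computed between each member and 2 scores, the mean log2 CPM of the interferon-induced genes and that of the macrophage markers, after removing the mean of each genotype and style. By exact permutation within those groups, two-sided, 0 of 32 passed after adjustment. The nearest were Irf5 with the macrophage score in BAT (r = 0.908, rho = 0.882, exact p 0.00694, adjusted 0.0741), Irf9 with the interferon score in BAT (r = 0.897, rho = 0.900, exact p 0.00463, adjusted 0.0741) and in WV (r = 0.863, rho = 0.830, exact p 0.00757, adjusted 0.0741), and Irf7 with it in BAT (r = 0.877, rho = 0.855, exact p 0.00926, adjusted 0.0741). Without the 2 libraries farthest from the median these were 0.817, 0.913, 0.709 and 0.890. In WV, where Irf5 was high, its r with the macrophage score was -0.786 (rho = -0.782, exact p 0.0222, adjusted 0.126; r = -0.556 without the 2 farthest). With the interferon score, Irf1 in WV had r = 0.793 (rho = 0.758, exact p 0.0236, adjusted 0.126). Irf3 in BAT ran opposite to that score, with r = -0.750 (rho = -0.736, exact p 0.0301, adjusted 0.138). The smallest exact p that the design allows was 0.00231 in BAT and 6.94e-05 in WV. The score genes and the members share libraries and depth.

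The genes most like Irf4 over the 11 BAT libraries, by Pearson's r of log2 CPM after removing the mean of each style, were Arl15 (0.947), Cdkn1c (0.929), Xiap (0.908), Fmo2 (0.906) and C1qbp (0.905) of 13016 genes. The most opposite were Fbxl19 (-0.940), Nckipsd (-0.940), Limch1 (-0.923), Cwc27 (-0.918) and Sharpin (-0.906). No member of the family was among them. Since Irf4 separates the genotypes, these values rank genes by genotype as well as by library.

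Some members share their locus with another gene in GENCODE's annotation. Irf3 overlaps Bcl2l12 (1.92 ± 0.455 CPM in floxed and 2.60 ± 0.249 CPM in BATI4KO fat), Irf7 overlaps Phrf1 (70.7 ± 13.1 and 67.5 ± 13.6 CPM) and Irf9 overlaps Rnf31 (16.9 ± 2.03 and 19.2 ± 2.30 CPM; SD, n = 5 and 6). Irf1 overlaps the antisense gene Gm17334. Strand handling is not stated, and reads in the shared stretches then cannot be told apart.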

How the data were processed

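RNA was measured in 11 BAT and 10 WV libraries after column purification, ribosomal RNA depletion, random priming and tagmentation, per the labels' protocols. The deposited values are raw read counts per gene model, with symbol and length, per the file headers. The submitters' processing notes name the build mm9, featureCounts 1.4.6 and edgeR, TopHat2 2.0.14, SAMtools, Picard and bcl2fastq. Order, settings and strand handling: not given in the sources used here. No sequence was read by mm9 coordinates.

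Groups came from the labels. Counts were tested with edgeR 4.0.16 in R 4.3.3 (TMM scaling, filterByExpr, quasi-likelihood F test, Benjamini-Hochberg adjustment, threshold 0.05). The BAT fit held genotype and title style, the WV fit genotype, and one fit of all 21 libraries the 4 groups and title style for the tissue and interaction contrasts. Intervals are 95% intervals. Log2 CPM for scores and correlations used a prior count of 2. Depth limits the low genes most: Irf5 had 45 to 154 counts per library in BAT, and Irf7 had 34 to 74 in WV. Replicate libraries differed by more than sampling noise in all 45 pairs. The steps were tested on simulated counts.

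Some items are not reported here. Each member is named. From each list, the smallest p in each direction is named for genotype where none passes, and up to 3 passing genes per direction by size and a mean of at least 1 CPM for tissue. Other genes were picked after their values were seen. The members and lists were chosen with earlier results of these data known. Alternatives were other scalings and filters, DESeq2 1.42.0, limma 3.58.1 voom, each title style alone, a replicate block, a muscle score covariate and leaving out each library.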

Additional observations from a re-analysis of the deposited data

Results flagged for a closer look

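The Irf4 genotype effect differed between the tissues by -1.98 on the log2 scale, by the interaction term of edgeR's quasi-likelihood test (adjusted p 0.0136). Its values by tissue were -2.45 in BAT and -0.48 in WV.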

How the results depend on the processing

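Irf4 in BAT kept its direction in all 25 alternatives (-2.77 to -2.21) and its call in 22, and the 3 without it used fewer libraries: 0 family members were called with short numbers only, with long tags only (-2.48) or with the replicate block (-2.34, adjusted p 0.819). Shared numbers were not treated as pairs, because no source says what they mark. Same-numbered BAT libraries correlated at 0.131, -0.106 and 0.0755, and tags found in both tissues at -0.084 to 0.113. Such values cannot decide whether a shared number marks the same mouse. The interaction of Irf4 was called in 28 of 31 alternatives, with 0 family members called under library totals, limma voom and the replicate block over the 4 shared tags (-1.51, adjusted p 0.205). Library totals turned Irf2 to +0.31 and +0.26 (tissue, floxed and BATI4KO) and Irf8 to +0.076 (BATI4KO), left 5 of 8 members called between tissues in BATI4KO mice and 1 for title style, and put 6 of the 32 score relations past the threshold. Without the title style covariate, an alternative chosen after seeing the data, Irf2 in floxed mice was +0.076. All WV titles carry long tags, so the covariate sets WV against BAT at its long-tag level. Floxed Irf2 averaged 7.67 CPM in long-tag and 13.0 CPM in short-number BAT libraries, against 10.3 CPM in WV. What the title styles mark is not stated, and the cause of the other changes was not tested.

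Genes called in BAT numbered 7, against 3 with upper-quartile scaling or a 1 CPM filter, 372 with DESeq2, 1 without the style covariate or with the muscle score, and 0 with short numbers only or the replicate block. In WV 1 was called, against 0 with upper-quartile scaling, library totals or the 1 CPM filter, 5 with no filter and 111 with DESeq2. The interaction called 3, against 20 with long tags only and 0 with the replicate block. Leaving out 1 library gave 1 to 16 in BAT (16 without BAT_FX_3), 0 to 11 in WV (11 without WV_KO_5495) and 3 to 30 for the interaction (30 without BAT_KO_2). Without length, 2, 3, 2 and 1 of 8 members kept their rank in floxed BAT, BATI4KO BAT, floxed WV and BATI4KO WV.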
